A study of Saccharomyces cerevisiae with 6 samples.

Results

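HAC1 (YFL031W) is the budding yeast gene for the transcription factor of the unfolded protein response, and its messenger is the one yeast mRNA known to lose an intron without the spliceosome. It was chosen by name, not by its values, though with earlier results of these data known. It is 1 of 239 genes and holds 1 of the 253 rows of the authors' deposited table. Each row carries 3 array features, an exon, an intron and an exon junction, which the labels tie to total mRNA, pre-mRNA and mature mRNA. HAC1 had values for all 3 features in all 3 replicates.

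The mutant cells carried Prp8 with the S2197F change and the wild type cells carried unchanged Prp8. In both, PRP8 came from a HIS-marked centromeric plasmid and the chromosomal gene was deleted, so the plasmid and the deletion are shared. Yeast were harvested from rich medium at 37 °C when the OD600 was near 0.7, and no compound that stresses the endoplasmic reticulum is named in the labels. Each of 3 independent pairs of cultures was hybridised on a pair of 2-colour arrays with the dyes exchanged, which makes 6 arrays and n = 3. The strain background is not given in the sources used here.

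Prp8 is the large scaffold protein at the catalytic centre of the spliceosome. The HAC1 transcript is exported with its intron in place, and pairing between the intron and the leader of the same messenger holds back translation. When unfolded proteins gather in the endoplasmic reticulum, the membrane protein Ire1 cuts both ends of the intron and tRNA ligase joins the exons. The spliced messenger is then translated into Hac1, which switches on chaperone genes such as KAR2. For most genes of the table an intron feature therefore reads transcripts that the spliceosome has still to process, together with splicing intermediates and excised introns. For HAC1, whose intron the spliceosome does not remove, the intron feature reads transcripts that Ire1 has not cut, including those kept in the cytoplasm. It would also read any cut intermediates and excised introns that remain. The junction feature of HAC1 reads the product of Ire1 and tRNA ligase. These are statements of background and were not measured here. Where the HAC1 probes lie in the gene is not given in the sources used here.

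All values below are log2 ratios of S2197F over wild type, so a positive value means more signal from S2197F. The direction is that of the table's column names. No source used here gives the logarithm's base, which was taken as 2, because the single-array values deposited beside it stop at 16.61, the log2 of 100000. SEs, 95% intervals and p-values are from limma fitted over the features of the whole table, two-sided, with Benjamini-Hochberg adjustment within each kind of feature. A change was called where the adjusted p was under 0.05.

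None of the 3 HAC1 features passed the test (0 calls by limma), and their means stood in the order exon, junction, intron. The intron of HAC1 averaged 0.17 (1.13-fold), the junction 0.30 (1.23-fold) and the exon 0.45 (1.37-fold). ACT1, the actin gene whose spliceosomal intron is often used to follow yeast splicing, had its intron highest. Its means were 0.86 for the intron, -0.36 for the junction and -0.33 for the exon. The median intron ratio of genes that are not ribosomal was 0.13, averaged over the replicates. ACT1 is thus a strongly raised row, and the contrasts with it below do not set HAC1 against a typical spliceosomal intron. The ACT1 junction had ratios of -1.26, 0.09 and 0.08, so its mean was negative through replicate 1 alone (0.083 without it).

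The HAC1 intron had ratios of -0.13, 0.45 and 0.21 in replicates 1, 2 and 3. Replicate 1 lay below 0 and the other replicates above it. Its mean of 0.17 ± 0.17 (SE, n = 3) did not pass (adjusted p = 0.50), and its 95% interval ran from 0.85-fold to 1.49-fold. By comparison 59 of 251 intron features passed (23.5%), every one of them higher in S2197F, and 15 of the 150 intron features of non-ribosomal genes were among them. That count rests on the replicates: 35 passed without replicate 1, 2 without replicate 2 and 47 without replicate 3, and HAC1 in none of these. The ACT1 intron had ratios of 0.75, 0.50 and 1.34, all above 0 (0.86 ± 0.20, adjusted p = 0.024 by limma, 0.13 without replicate 2 and 0.053 without replicate 3). HAC1 minus ACT1 was -0.89, -0.05 and -1.14 within the replicates (-0.69 ± 0.57, SD, n = 3), lower in 3 of 3. An exact two-sided sign-flip test gave p = 0.25, the smallest it can give with 3 pairs.

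The HAC1 junction, the mark of the spliced messenger, had ratios of 0.66, 0.24 and 0.0061. All were above 0, the last barely, and replicate 1 was far higher than replicate 3. The mean of 0.30 ± 0.18 did not pass (adjusted p = 0.51, interval 0.92-fold to 1.65-fold). In this class 1 of 248 features passed (0.403%), and it was lower in S2197F. Without replicate 1 there were 11, without replicate 2 there were 0 and without replicate 3 there were 3, none of them HAC1. The table holds ratios without intensities, so whether the HAC1 junction was above background in these cultures is not known here.

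The HAC1 exon, which the labels tie to total mRNA, had ratios of 0.61, 0.41 and 0.33, above 0 in 3 of 3 replicates. The mean was 0.45 ± 0.16, with a 95% interval from 1.06-fold to 1.76-fold and an unadjusted p of 0.022 by limma. It did not pass after adjustment (adjusted p = 0.34). No exon feature of the table did (0 of 234 by limma, 0%), while an unadjusted p under 0.05 was reached by 4 in the higher and 26 in the lower direction. The ACT1 exon had -0.57, -0.11 and -0.32, and HAC1 exceeded it in 3 of 3 replicates, by 0.78 ± 0.35 (SD, n = 3; exact sign-flip p = 0.25).

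**Figure D1:**
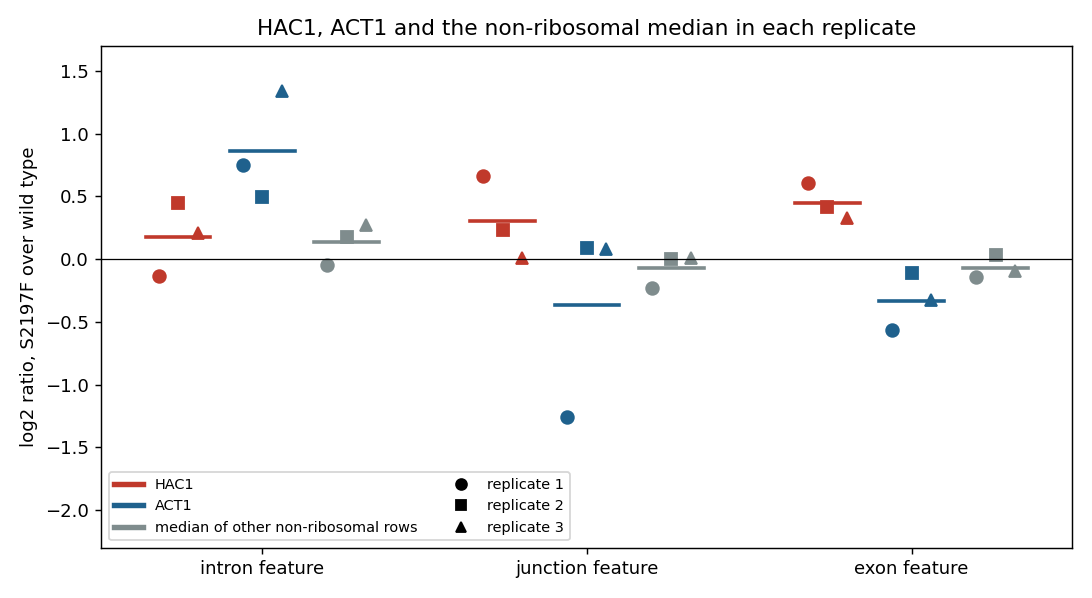
Log2 ratio of S2197F over wild type for HAC1, ACT1 and the median of the other non-ribosomal rows, by kind of feature; each symbol is 1 replicate and each bar the mean of 3. The HAC1 intron averages 0.17 beside a median of 0.13, and the HAC1 exon lies above the median in every replicate.

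Ribosomal protein genes carried most of the intron calls, so HAC1 was set against the genes that are not ribosomal by name (not RPL or RPS with a number). HAC1 was placed in the middle of their introns, near the top of their junctions and close to the very top of their exons. Its intron was the 69th highest of 144 such features with values in every replicate, and 52.4% of the others lay below it. Taken by replicate the share below was 37.8%, 84.6% and 43.4%. Its junction was the 10th highest of 126, with 92.8% below it and 96.8%, 84.0% and 48.8% by replicate. Its exon was the 3rd highest of 135, with 98.5% below it and 97.0%, 97.0% and 88.8% by replicate. The exon thus kept a high place in each replicate, while the places of the intron and the junction moved widely between replicates.

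The neighbours of HAC1 in these orders were picked for their place beside it. Their closeness to HAC1 follows from that choice and was not tested. Among introns, DCN1, which promotes attachment of the ubiquitin-like protein Rub1 to cullins, and 1 row of MTR2, an mRNA export factor, stood just above at 0.18 and 0.18. RIM1, a mitochondrial DNA-binding protein, and a row of YOS1, a protein of transport from the endoplasmic reticulum, stood just below at 0.17 and 0.16. The order ran from SNR17B, a gene of the U3 small nucleolar RNA, at 2.25 down to TAN1, a tRNA acetylation factor, at -0.39. Among exons only YRA1, another mRNA export factor (0.53 ± 0.18), and SNR17B (0.51 ± 0.15) were above HAC1, and MTR2 (0.44 ± 0.16) and YOL047C (0.43 ± 0.20) came next below. PFY1, the profilin gene, was lowest at -0.53.

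Among junctions HAC1 lay between the shared feature of the U3 genes at 0.32, with a row of DYN2, a dynein light chain, also at 0.32 above that, and HMRA1 at 0.29 and YOL047C at 0.25 below. Junctions ran from RBS1 at 1.21, with -0.17 in 1 replicate, down to YBR225C at -0.78. The SDs over replicates of these neighbouring junctions, from 0.14 to 0.52, exceeded the steps between them.

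**Figure D2:**
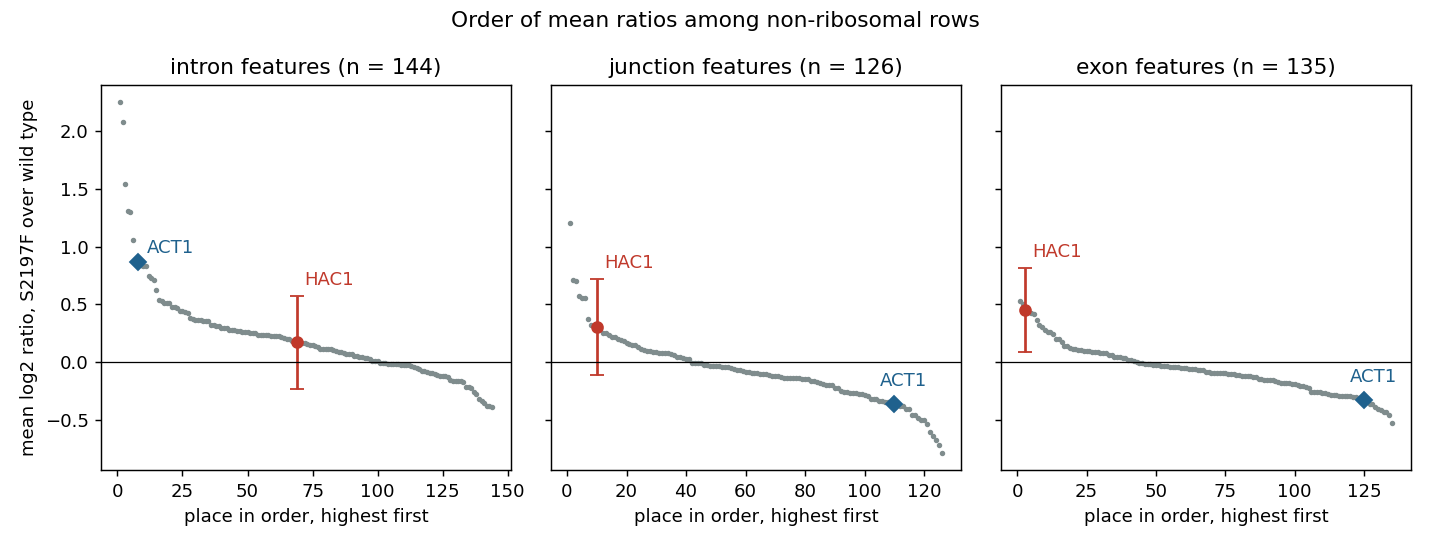
Mean log2 ratios over 3 replicates of non-ribosomal features, ordered from the highest, with HAC1 (circle, 95% interval from limma) and ACT1 (diamond). HAC1 is 69th of 144 introns, 10th of 126 junctions and 3rd of 135 exons.

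The distance of HAC1 from the non-ribosomal median of the same replicate was tested in a fit of its own over all features. The intron lay -0.09, 0.27 and -0.06 from the median (0.04 ± 0.15, SE, adjusted p = 0.89), with a 95% interval from 0.79-fold to 1.33-fold. The HAC1 intron was therefore not separated from the introns of other non-ribosomal genes, and differences of either sign within that interval cannot be told at this number of arrays. In this fit 4 of 251 introns passed (1.59%), all higher, with 22 without replicate 2 and 2 without replicate 3. The junction lay 0.89, 0.24 and -0.0036 from the median (0.38 ± 0.21, adjusted p = 0.61), and 0 of 248 junctions passed (0%; unadjusted p under 0.05 for 5 higher and 18 lower by limma), with 6 without replicate 2. The exon lay 0.75, 0.38 and 0.42 above it (0.52 ± 0.15, 1.43-fold, 95% interval 1.10-fold to 1.85-fold). Its unadjusted p was 0.015, and it did not pass after adjustment (adjusted p = 0.46), as 0 of 234 exons did (0%; unadjusted p under 0.05 for 6 higher and 17 lower by limma).

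Against ribosomal protein genes the HAC1 intron stood lower on average, without keeping that sign. Their median intron ratio was 0.58, 0.43 and 0.43 in the 3 replicates, and HAC1 minus this median was -0.71, 0.01 and -0.23 (-0.31 ± 0.37, SD, n = 3; exact sign-flip p = 0.50, where 0.25 is the smallest possible). Among introns of all genes HAC1 was 161st of 245.

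Differences between features of 1 row are not moved by a shift common to all features of a replicate. Whether the authors scaled the kinds of feature separately is not given in the sources used here. For HAC1 no such difference passed, and both differences with the intron were negative on average. Intron minus junction was -0.80, 0.21 and 0.20, so 1 replicate was far below 0 and the others slightly above. The mean of -0.13 ± 0.28 did not pass (adjusted p = 0.77, interval 0.62-fold to 1.36-fold). Of 247 rows 53 passed (21.5%), 52 of them higher, but 33 without replicate 1 and 2 without replicate 3. ACT1 passed, with 2.01, 0.41 and 1.27 (1.23 ± 0.29, adjusted p = 0.0013 by limma), though not without replicate 1 (adjusted p = 0.073) or replicate 3 (adjusted p = 0.14). HAC1 minus ACT1 in this difference was -2.81, -0.20 and -1.07, lower in 3 of 3 replicates (exact sign-flip p = 0.25). In replicate 1 the ACT1 junction was -1.26, its only value below 0.

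Intron minus exon was -0.74, 0.03 and -0.12 for HAC1, with a mean of -0.28 ± 0.24 (adjusted p = 0.39, interval 0.58-fold to 1.17-fold). Replicate 1 carried most of it, and the mean was -0.044 without it. Of 246 rows 72 passed (29.3%), all higher, but 0 without replicate 1 and 45 without replicate 2, and ACT1 had 1.20 ± 0.25 (adjusted p = 0.0022 by limma, 0.077 without replicate 1). Junction minus exon was 0.05, -0.18 and -0.32 for HAC1 (-0.15 ± 0.20, adjusted p = 0.80), and 0 of 244 rows passed (0%; unadjusted p under 0.05 for 5 higher and 6 lower by limma).

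By its means HAC1 stood near the lower end of the non-ribosomal rows in both differences with the intron. For intron minus junction this rested on replicate 1. HAC1 was the 130th of 139 in intron minus exon, with 6.52% of the others below it, 6.52%, 32.6% and 19.6% by replicate and 17.4% without replicate 1. It was the 103rd of 122 in intron minus junction, with 15.7% below it, 3.31%, 47.9% and 38.0% by replicate and 39.7% without replicate 1. DID4, of the sorting complexes for endosomal transport, and the meiotic checkpoint gene PCH2 stood next above it in that order, at -0.08 and -0.09. DTD1, a D-aminoacyl-tRNA deacylase, and a row of MTR2 stood next below, both at -0.13, and the order ran from YIP3 at 1.98 to RBS1 at -1.15, which had 0.33 in replicate 2.

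The separation from the non-ribosomal median of these differences was tested as an analysis added after the values were seen. Intron minus exon of HAC1 lay -0.79, -0.13 and -0.51 from the median (-0.48 ± 0.26, SE, adjusted p = 0.22; 17.1% of 246 rows passed). It was lower in 3 of 3 replicates, and the 95% interval on the log2 scale, -0.995 to 0.04, includes 0. Of the 42 rows that passed, 41 were higher and only 1 was lower, the side on which HAC1 lay. Intron minus junction of HAC1 lay -1.04, -0.01 and -0.19 from its median (-0.41 ± 0.27, adjusted p = 0.44; 0.81% of 247 rows passed, all higher). Neither passed, so the low place of HAC1 in these orders is a description.

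**Figure D3:**
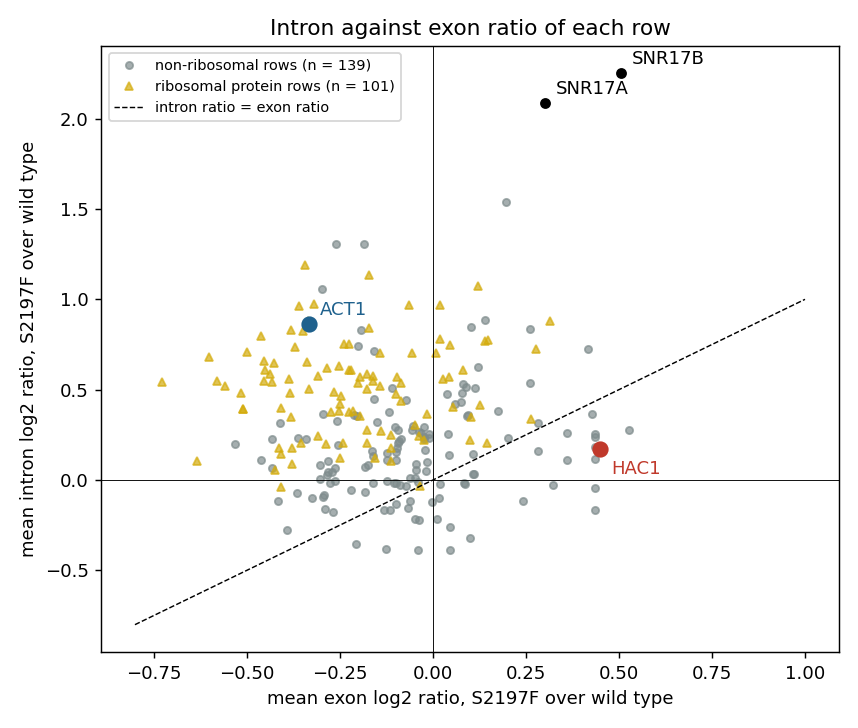
Mean intron log2 ratio against mean exon log2 ratio for 139 non-ribosomal rows (circles) and 101 ribosomal protein rows (triangles), with the line of equal ratios dashed. HAC1 lies under the line with 34 other non-ribosomal rows, no ribosomal protein row does (0 of 101), and ACT1 and both U3 genes lie above it. Rows of the same gene share their exon feature, and the 34 include several rows of MTR2 and of SRC1, so they are fewer genes than rows.

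The order of its features was uncommon among rows with all 9 values. The intron had the lowest of the 3 mean ratios in 13 of the other 117 non-ribosomal rows (11.1%) and in 0 of 92 ribosomal protein rows, and the highest in 78 (66.7%) and 91 (98.9%) of them. The full order of HAC1, exon above junction above intron, was found in 6 of those 117 rows (5.13%). These shares describe means over replicates. No single replicate of HAC1 had this full order: in replicate 1 the junction was above the exon and the intron lowest, and in the other replicates the junction was lowest.

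The SDs of HAC1 over replicates were ordinary for the table. They were 0.29 for the intron, 0.33 for the junction and 0.14 for the exon, where the median SD of the other non-ribosomal features was 0.29, 0.30 and 0.24.

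The likeness of other genes to HAC1 was measured as the root mean square difference over the 9 values, 3 features in each of 3 replicates, for 117 non-ribosomal rows. The 9 values share arrays, and the measure says nothing of shared control. NCB2, a subunit of the negative cofactor that represses transcription by RNA polymerase II, was nearest at 0.29. Its intron had ratios of 0.09, 0.05 and -0.23, its junction 0.58, 0.15 and 0.40, and its exon 0.39, 0.11 and 0.47. KEI1, a part of the Golgi enzyme that makes inositol phosphorylceramide, followed at 0.31. The next were a row of MTR2 at 0.37, VMA10, a subunit of the vacuolar proton pump, at 0.37, and a row of HMRA1, a silent mating type gene, at 0.38. No feature of these 5 rows passed the test (0 calls by limma). Over all features 23.5% of introns, 0.403% of junctions and 0% of exons passed. The rows were picked for values near those of HAC1, none of which passed, so this lack of calls follows largely from the choice. The median over the 117 rows was 0.58, and ACT1, at 0.93, was the 112th nearest.

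**Figure D4:**
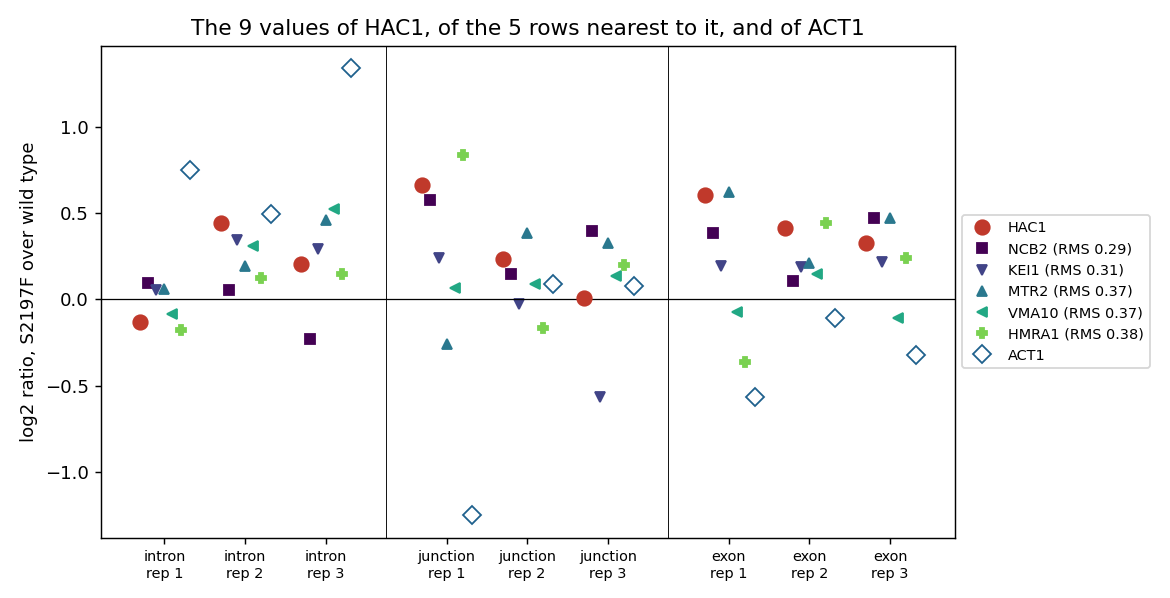
The 9 log2 ratios (3 features in 3 replicates) of HAC1, of the 5 non-ribosomal rows with the smallest root mean square (RMS) difference from it, and of ACT1; points of a replicate are set side by side. The 5 rows lie within 0.38 RMS of HAC1, against 0.93 for ACT1.

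The genes that act with HAC1 could not be followed. Of 24 names listed for the unfolded protein response and HAC1 processing, among them IRE1, TRL1 (tRNA ligase), KAR2 and PDI1, 0 have a row in the table, which covers genes with introns. The nearest group with values was secretory and vesicle traffic, with 21 genes of 29 names. The list also took GIM5 and VPS75, which are chaperones of tubulin and actin and of histones. Of its 22 intron features 1 rose and 0 fell: YIP3, a membrane protein of vesicle traffic, at 1.30 ± 0.27 (adjusted p = 0.021, 0.13 without replicate 2), while GOT1, YOP1 and SEC17, which act in Golgi transport, membrane shaping and membrane fusion, had 0.51, 0.51 and 0.37 without passing. Over all introns 59 of 251 passed (23.5%), and 15 of 150 (10%) among non-ribosomal ones. The list's median was 0.23, against 0.27 over all intron features, and 8 of the 22 lay below HAC1. None of its 22 junction or 21 exon features passed (0 calls by limma). Over all features 1 of 248 junctions (0.403%) and 0 of 234 exons (0%) passed. The exons had a median of -0.11, against -0.12 over all exon features, and all 21 were lower than the HAC1 exon, the highest being 0.28. Its junctions had a median of -0.11, against -0.10 over all junctions, and 21 of 22 lay below that of HAC1. Among all other non-ribosomal features 98.5% of exons and 92.8% of junctions lay below those of HAC1, so both counts restate its place.

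RNA processing and spliceosome genes were the second group, with 9 genes of 18 names. The list also took HNT1 and AML1, which encode enzymes outside splicing. Of 15 intron features 1 rose and 0 fell, namely DBP2, which encodes an RNA helicase (0.73 ± 0.16, adjusted p = 0.023, 0.13 without replicate 2). The shares over all and over non-ribosomal introns were the 23.5% and 10% given above. LSM7 and LSM2, of the ring that binds U6 RNA, had 0.63 and 0.44 and YRA1 had 0.28, and none of these passed. The median was 0.16, against 0.27 over all intron features, and 8 of the 15 lay below HAC1. MTR2 and AML1 hold several of the 15 features, and the median is itself a row of AML1. Most of the 8 belong to MTR2, AML1 and HNT1, so median and count say little of splicing genes. None of the 15 junction or 9 exon features passed (0 calls by limma), where 0.403% of all junctions and 0% of all exons did. Of the 9 exons 8 lay below that of HAC1, all except YRA1. Among all other non-ribosomal exons 98.5% lay below it, so this count restates the place of HAC1.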

How the data were processed

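Yeast RNA of S2197F and wild type was compared on 6 splicing-sensitive arrays with 2 colours. The authors combined an array and its dye flip, per the labels, and deposited 1 log2 ratio per feature and replicate. How they corrected background, filtered spots, normalized and centred is not given in the sources used here, nor is the log base, taken as 2. No intensities were used, so 3 replicates set the precision. Rows repeating all 3 values of another row within a class counted as 1 feature. A feature needed values in 2 or more replicates. The model was limma's (version 3.58.1, R 4.3.3) with 1 sample group tested against 0, all classes together, and 1 fit per pair of classes for differences. For intron minus junction the prior weighed heavily (57.2 prior df, where the classes had 5.83), so its SE hardly reflects the HAC1 replicates alone. Scripts were tested on simulated data. The deposited single-array log2 ratios have no gene names and served only for the base. No HAC1 or probe sequence is printed. HAC1 and the gene lists were chosen with earlier results of these data known. The genes named are HAC1, ACT1, the 2 neighbours on each side and both ends of each order, the 5 nearest rows and the 4 list members with the largest intron ratio. Alternatives were leaving out replicates, other centrings, filters and prior variances.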

Additional observations from a re-analysis of the deposited data

How the results depend on the processing

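Each of the 9 HAC1 results tested was recomputed under 6 or 7 other settings. HAC1 was called in none of these 60 values (0 calls by limma, lowest adjusted p 0.17), and 57 kept the sign. Leaving out a replicate gave an intron ratio from 0.037 to 0.33, a junction ratio from 0.12 to 0.45 and an exon ratio from 0.37 to 0.51. Intron minus junction ran from -0.30 to 0.21, turning positive without replicate 1, and the share of non-ribosomal rows below HAC1 in it from 7.44% to 39.7%. Intron minus exon ran from -0.43 to -0.044, highest without replicate 1, and that share in it from 4.35% to 17.4%. The intron less the non-ribosomal median ran from -0.074 to 0.10, turning negative without replicate 2, and was -0.12 against the median of all rows. The cause of these changes was not tested. Intron calls over all features numbered 91 after centring on exons, against 59. Each ratio already pairs mutant with wild type within a replicate, so no further replicate block was fitted.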
